A study of Homo sapiens with 6 samples.

Results

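The metallothioneins and the genes of the zinc response were followed in SK-N-SH neuroblastoma cells given dopamine. The set held 10 genes, found by symbol among the 26789 genes of the deposited table. It comprised 7 metallothioneins (MT1A, MT1E, MT1F, MT1G, MT1M, MT1X and MT2A), the transcription factor MTF1, the zinc exporter SLC30A1 and the zinc importer SLC39A10. Each symbol occurred once. RNA was sequenced from 3 samples treated with dopamine for 6 h and 3 control samples given medium only, and gene levels were deposited as FPKM, fragments counted per gene scaled to gene length and to the library's total. All 6 samples were wild-type SK-N-SH, a line from a human neuroblastoma that holds cells of more than 1 type; the series design text names its subline SH-SY5Y instead. The dose is given in the labels as 40 M, apparently with the prefix of the unit missing, and no dose is read from it. Nothing in the labels says that replicates were separate cultures, so a p-value here measures only how far these samples spread, which may be technical.

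Metallothioneins are small, cysteine-rich proteins that hold zinc and copper in thiolate clusters and can also bind cadmium. When free zinc is high, MTF1, a zinc-finger transcription factor, binds short DNA motifs called metal response elements and activates metallothionein genes and SLC30A1, whose protein moves zinc out of the cytosol. In mouse, MTF1 is also known to repress Slc39a10, which brings zinc into the cell. Oxidants and glucocorticoids are further known inducers of metallothionein genes, and dopamine can oxidise to reactive quinones.

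The 3 metallothioneins with enough signal to test were MT2A, MT1E and MT1X, and their coding sequences are shown because the likeness between family members bears on how reads can be assigned. All 7 metallothioneins encoded 61 amino acids in 186 bases including the stop codon, and 20 of the 61 codons were for cysteine. In the sequences below, read 5′ to 3′ from the GENCODE v29 annotation of GRCh38, the capitals mark the cysteine codons. Across the 21 pairs of the 7 genes, coding identity was between 88.7% and 95.2%, and the longest run shared exactly between the transcripts of a pair was between 32 and 96 bases. A read that falls inside such a run cannot be assigned to 1 gene, so levels of single metallothioneins are uncertain to that extent.
MT2A: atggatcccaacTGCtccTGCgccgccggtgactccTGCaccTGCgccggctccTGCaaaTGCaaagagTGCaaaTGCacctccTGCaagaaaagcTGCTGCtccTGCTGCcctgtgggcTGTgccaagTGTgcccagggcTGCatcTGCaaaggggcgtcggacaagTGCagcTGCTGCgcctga
MT1E: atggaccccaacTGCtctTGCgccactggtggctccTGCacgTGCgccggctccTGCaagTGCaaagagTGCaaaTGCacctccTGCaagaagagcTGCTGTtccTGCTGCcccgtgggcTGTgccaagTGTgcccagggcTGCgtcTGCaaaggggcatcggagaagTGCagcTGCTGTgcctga
MT1X: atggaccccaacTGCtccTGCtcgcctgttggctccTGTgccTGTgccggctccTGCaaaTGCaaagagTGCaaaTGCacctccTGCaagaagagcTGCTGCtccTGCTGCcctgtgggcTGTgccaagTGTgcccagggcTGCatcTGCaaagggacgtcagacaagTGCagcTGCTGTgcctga

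Promoters are shown for 3 genes because they carry the motif that MTF1 reads. Windows of 300 bases, 250 before and 50 from the start site, came from RefSeq (GRCh38.p14), and 5 of the 10 genes had 6 windows there: MT2A, MT1X, SLC30A1, MTF1 and SLC39A10, which had 2. MT1A, MT1E, MT1F, MT1G and MT1M had no entry. The metal response element core was searched as TGCACNC or TGCGCNC and the antioxidant response element core, the motif of the factor NRF2, as TGACNNNGC, each on both strands. Over all 35116 windows, 29.6% held at least 1 metal response core, 8.6% held at least 2, 0.601% held at least 4 and 0.0199% held at least 8. An antioxidant core was present in 13.3% of windows. MT2A held 8 metal response cores, 7 of them before the start site. MT1X held 4, all before the start site, and SLC30A1 held 2, of which 1 was before it. SLC39A10 held 1 core after the start in 1 of its windows and none in the other, and MTF1 held none. Each of MT2A, MT1X and SLC30A1 also held 1 antioxidant core, which in MT2A lay 104 to 96 bases before the start site. The 250 bases before each start are given 5′ to 3′ on the gene's own strand, with metal response cores in capitals, for MT2A at chr16:56608334-56608583 (plus strand), MT1X at chr16:56682220-56682469 (plus strand) and SLC30A1 at chr1:211579162-211579411 (minus strand). A match describes letters and is not a shown binding site.
MT2A: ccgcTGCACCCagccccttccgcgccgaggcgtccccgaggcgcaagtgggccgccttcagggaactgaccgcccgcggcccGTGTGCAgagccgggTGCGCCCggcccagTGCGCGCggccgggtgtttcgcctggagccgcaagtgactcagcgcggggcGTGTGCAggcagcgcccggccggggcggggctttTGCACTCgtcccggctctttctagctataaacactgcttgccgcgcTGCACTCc
MT1X: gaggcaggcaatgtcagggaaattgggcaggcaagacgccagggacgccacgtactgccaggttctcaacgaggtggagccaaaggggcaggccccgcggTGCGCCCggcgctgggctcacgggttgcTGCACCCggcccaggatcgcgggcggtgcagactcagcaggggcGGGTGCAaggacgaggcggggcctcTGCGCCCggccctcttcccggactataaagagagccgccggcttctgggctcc
SLC30A1: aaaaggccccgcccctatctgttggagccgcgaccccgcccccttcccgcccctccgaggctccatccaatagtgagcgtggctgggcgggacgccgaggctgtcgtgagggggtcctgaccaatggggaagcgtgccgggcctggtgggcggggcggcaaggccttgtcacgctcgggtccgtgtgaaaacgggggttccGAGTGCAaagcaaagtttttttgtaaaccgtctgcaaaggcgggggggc

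**Figure D1:**
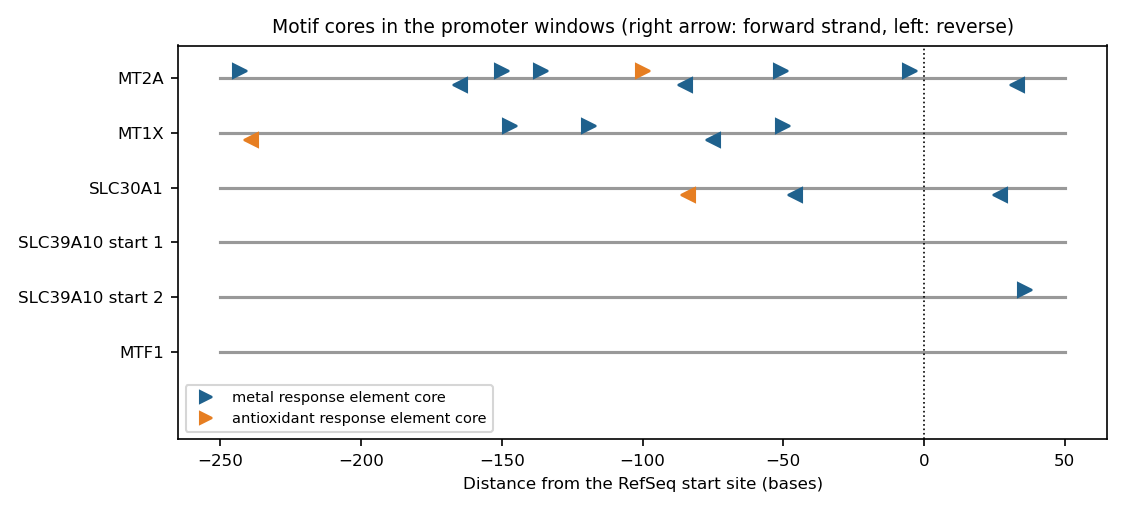
Positions of metal response element cores (blue) and antioxidant response element cores (orange) in the RefSeq promoter windows of 5 genes, as distance from the start site in bases, with arrows for the strand. MT2A holds 8 metal response cores, MT1X 4 and SLC30A1 2.

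The libraries set the limits of every comparison that follows. Recovered totals lay between 19392200 and 24231400 fragments. The libraries differed in how expression followed GC content: per 10 points of GC content, deviations from the gene means sloped by between -0.26 and -0.03 log2 units in dopamine libraries and between 0.02 and 0.22 log2 units in control libraries (two-sided exact permutation p = 0.1, the smallest possible with 3 against 3). AT-rich transcripts thus stood higher in dopamine libraries as a class, so values as deposited are set beside those after a loess correction for GC content and transcript length. Markers of the labelled cells were present in both groups: the 9 adrenergic neuroblastoma markers, among them HAND2 and PHOX2A, summed to between 316.8 and 369.7 FPKM in dopamine samples and between 325.1 and 375.9 FPKM in control samples. The 9 mesenchymal markers summed to between 1210 and 1265.5 FPKM in dopamine samples and between 1217.8 and 1367.7 FPKM in control samples. Of 6 haematopoietic markers 3 were listed, summing to at most 0.0512 FPKM in dopamine and 0.0939 FPKM in control samples. Of 6 epithelial markers 4 were tested, and 0 passed the adjusted threshold used below. All 4 were lower in every dopamine sample than in any control sample, against 14.1% of all tested genes. After the correction KRT8 and KRT18 still had groups apart, while KRT19 and CLDN4 overlapped, against 23.8% of genes with groups apart in either direction. Sums of the 6 lay between 107 and 123 FPKM in dopamine samples and between 142 and 176 FPKM in control samples. EPCAM and CDH1, which define epithelial cells, stayed under 0.2 FPKM in every library. The part of these markers in the results was not tested.

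No metallothionein passed the test for a higher level with dopamine, and the most abundant, MT2A, had a lower mean. Of the 10 genes, 6 averaged at least 1 FPKM and were tested with limma on log2(FPKM + 0.5), and 0 of those 6 passed a Benjamini-Hochberg adjusted p of 0.05, against 0.102% of the 11791 tested genes. At an unadjusted p of 0.05 there were 4 of 6, SLC30A1, SLC39A10 and MTF1 with higher means and MT2A with a lower one, against 32.5% of all tested genes (24.4% higher, 8.05% lower). The same 4 had groups that did not overlap, against 38.4% of all tested genes (24.4% higher, 14.1% lower). The median log2 fold change of the 6 was 0.13, against 0.08 over all tested genes. Once GC content and length were corrected for, 0 of the 6 passed, against 0.242% of genes. At an unadjusted p of 0.05 there were then 3 of 6 (MT2A, SLC30A1 and SLC39A10), against 17.0% of genes, and the same 4 genes had groups apart, against 23.8% of genes. The corrected median of the 6 was 0.03. In bulk RNA, fewer cells of a type and less RNA per cell cannot be told apart.

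MT2A (ENSG00000125148.6, hg19 chromosome 16, 56642111 to 56643409) stood at 75.6, 89.2 and 78.5 FPKM in dopamine replicates 1, 2 and 3, against 97.5, 108 and 98.5 FPKM in control replicates 1, 2 and 3. Every dopamine sample was below every control sample. The means were 81.1 ± 7.16 FPKM with dopamine and 101 ± 5.97 FPKM in control (SD, n = 3 each), a fold of 0.799. On the log2 scale the change was -0.32 (SE 0.09, 95% interval -0.52 to -0.13, limma adjusted p = 0.11), which did not pass. At 1299 bases of exon these levels came from about 2034, 2246 and 2179 fragments in dopamine libraries and about 2879, 3409 and 2646 in control libraries, so counting error was small beside the spread between samples. The longest annotated transcript of MT2A had a GC content of 53.9%, at percentile 65.4 of the tested genes, and this value entered the correction. Its coding sequence alone had 62.4%. The GC and length correction left its log2 fold change at -0.30 (SE 0.07, limma adjusted p = 0.156), with the groups still apart. Among the alternatives run, it was called only without control replicate 1 (-0.35, limma adjusted p = 0.0418) and with sample quality weights (-0.35, limma adjusted p = 0.0193), settings in which 18.5% and 22.9% of all tested genes were called.

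MT1E (ENSG00000169715.10, chromosome 16, 56659387 to 56661024) had the second highest level of the family, with 5.41, 6.52 and 4.80 FPKM in dopamine replicates 1, 2 and 3, against 6.74, 6.67 and 4.51 FPKM in control replicates 1, 2 and 3. The groups overlapped, and control replicate 3 was the lowest of the 6. Means were 5.58 ± 0.870 FPKM with dopamine and 5.97 ± 1.27 FPKM in control (SD, n = 3 each). The log2 fold change was -0.08 (SE 0.16, 95% interval -0.45 to 0.29, limma adjusted p = 0.749), or -0.05 after the correction (limma adjusted p = 0.892), and the deposited value turned to between 0.00 and 0.01 when dopamine replicate 3, control replicate 1 or control replicate 2 was left out.

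MT1X (ENSG00000187193.8, chromosome 16, 56716336 to 56718108) stood at 1.034, 1.018 and 1.082 FPKM in dopamine replicates 1, 2 and 3, against 0.993, 1.16 and 1.17 FPKM in control replicates 1, 2 and 3. The dopamine samples lay close together and inside the control range. The log2 fold change was -0.06 (SE 0.13, 95% interval -0.36 to 0.24, limma adjusted p = 0.779), and -0.06 after the correction (limma adjusted p = 0.799). These levels rested on about 38, 35 and 41 fragments in dopamine libraries and about 40, 50 and 43 in control libraries. The fragment numbers take a divisor of 1771 bases, nearly the whole span of the gene.

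The other 4 metallothioneins averaged less than 1 FPKM and were described without the genome-wide test. MT1F (chromosome 16, 56691606 to 56694610) had 1.201, 0.764 and 0.619 FPKM in dopamine replicates 1, 2 and 3, against 1.12, 1.00 and 0.743 FPKM in control replicates 1, 2 and 3 (exact permutation test on log2 values, two-sided, p = 0.8). The groups overlapped, with about 100 fragments over the dopamine libraries and about 123 over the control libraries. MT1A (56672578 to 56673999) had 0.609, 0.521 and 0.118 FPKM in dopamine samples, against 0.445, 0.625 and 0.489 FPKM in control samples, which also overlapped (exact permutation p = 0.8) and came from about 10 and 14 fragments in all.

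MT1M (56666145 to 56667898) had 0.205, 0 and 0.199 FPKM in dopamine replicates 1, 2 and 3, against 0.654, 0.394 and 0.257 FPKM in control replicates 1, 2 and 3. No dopamine value reached the lowest control value, and the exact permutation p was 0.1, the smallest that 3 against 3 allows. The libraries held about 4, 0 and 4 fragments of MT1M with dopamine and about 14, 9 and 5 in control. A count of 0 in dopamine replicate 2 allows up to 0.202 FPKM (upper end of the 95% interval, counting error only). Fitted with no filter on low values, MT1M did not pass (limma adjusted p = 0.294). MT1G (56700643 to 56701977, minus strand) had 0.0643, 0 and 0 FPKM in dopamine samples, against 0.117, 0 and 0.194 FPKM in control samples, about 1 fragment in all with dopamine and 5 in control. At this depth no difference in MT1G was detectable.

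The order of levels per kilobase was the same in both groups at the top. MT2A was above MT1E in every library, and MT1E above MT1X. MT1X and MT1F overlapped in both groups, and both were above MT1A in every library. MT1A and MT1M overlapped with each other over the 6 libraries, and MT1G was at or below MT1M in each. Summed over the 7 genes, metallothionein levels were 84.1, 98.0 and 85.3 FPKM in dopamine replicates 1, 2 and 3, against 108, 118 and 106 FPKM in control replicates 1, 2 and 3. MT2A made up 91.0% ± 1.07 of that sum with dopamine and 91.8% ± 1.205 in control (SD, n = 3 each), so the sum followed MT2A. Without MT2A the sums overlapped, at 8.53, 8.82 and 6.82 FPKM in dopamine samples and 10.1, 9.86 and 7.36 FPKM in control samples. MT2A's own level was at percentile 96.7 of the tested genes.

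**Figure D2:**
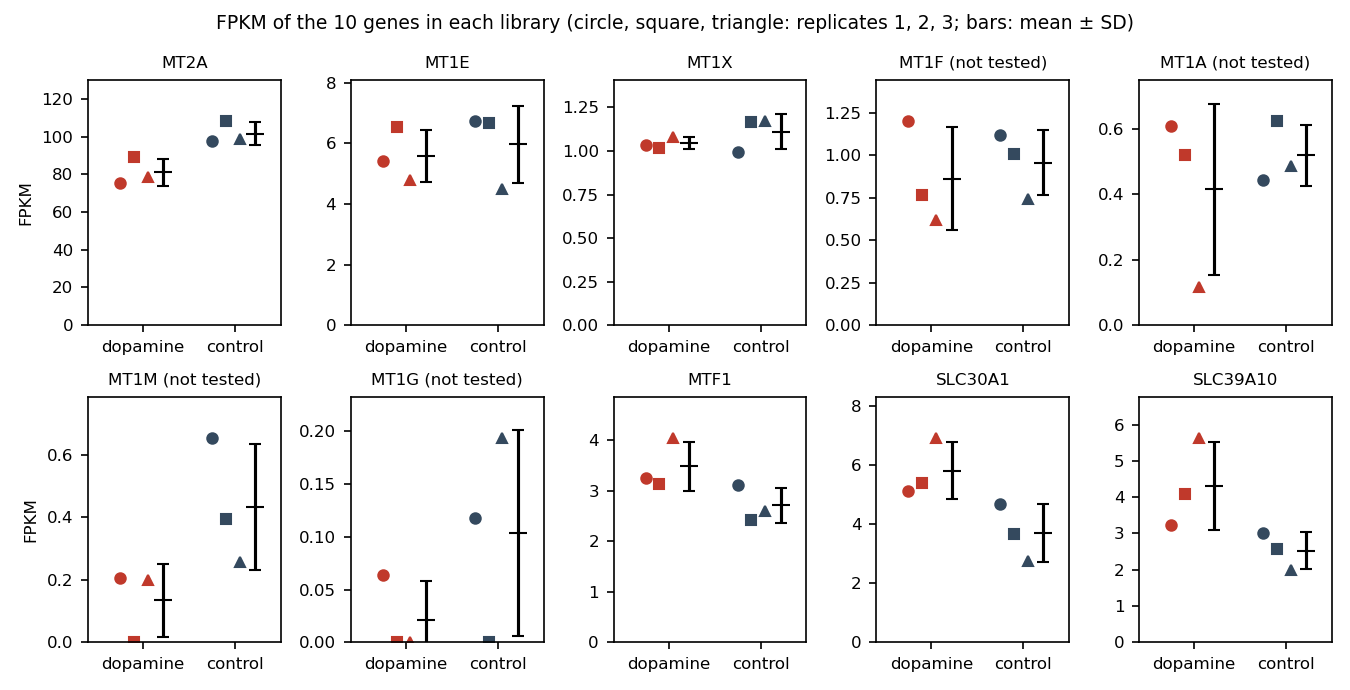
FPKM of the 10 genes in each library, dopamine (red) left of control (blue), with circle, square and triangle for replicates 1, 2 and 3 and bars for mean ± SD; each panel has its own axis from 0. MT2A is lower in all 3 dopamine libraries, while MTF1, SLC30A1 and SLC39A10 are higher in all 3.

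Related sequences of the family added little signal. MT1H, a further metallothionein gene of the cluster, was listed at 0 in all 3 dopamine libraries and at 0.0571 FPKM in 1 control library, which is about 1 fragment. The pseudogene MT2P1 had 0.519, 1.94 and 1.26 FPKM in dopamine samples and 1.42, 1.55 and 1.30 FPKM in control samples (log2 fold change -0.23, limma adjusted p = 0.556). The pseudogene MT1XP1 had 1.82, 0.554 and 1.76 FPKM in dopamine samples and 1.18, 0.887 and 1.04 FPKM in control samples (log2 fold change 0.21, limma adjusted p = 0.613). Both overlapped between groups and came from 2 to 7 fragments a library. MT1H held 8 metal response cores in its RefSeq window, as many as MT2A.

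MTF1 (ENSG00000188786.9, chromosome 1, 38275239 to 38325292, minus strand) stood at 3.26, 3.14 and 4.04 FPKM in dopamine replicates 1, 2 and 3, against 3.11, 2.43 and 2.60 FPKM in control replicates 1, 2 and 3. The groups did not overlap, but dopamine replicate 2 and control replicate 1 were nearly level. The log2 fold change was 0.31 (SE 0.14, 95% interval 0.00 to 0.61, limma adjusted p = 0.153), and correcting for GC content and length gave 0.11 (SE 0.08, limma adjusted p = 0.461). MTF1 has a long transcript of 7972 bases, at percentile 93.0 of the tested genes. Among the alternatives run, it was called only with sample quality weights (0.30, limma adjusted p = 0.04995).

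SLC30A1 (ENSG00000170385.9, chromosome 1, 211744910 to 211752084, minus strand), the exporter of the plasma membrane and a textbook MTF1 target, stood at 5.11, 5.398 and 6.91 FPKM in dopamine replicates 1, 2 and 3, against 4.70, 3.66 and 2.75 FPKM in control replicates 1, 2 and 3. All 3 dopamine samples were above all 3 control samples, and the widest gap was between the libraries numbered 3. Means were 5.81 ± 0.968 FPKM with dopamine and 3.70 ± 0.975 FPKM in control (SD, n = 3 each), a fold of 1.52 and a log2 fold change of 0.60 (SE 0.18, 95% interval 0.20 to 1.00, limma adjusted p = 0.11). Its GC content of 38.0% was at percentile 6.41 of the tested genes. After the GC and length correction the log2 fold change was 0.17 (SE 0.07, limma adjusted p = 0.262), with the groups still apart. SLC30A1 was called without control replicate 1 (0.77, limma adjusted p = 0.0304) and with sample quality weights (0.49, limma adjusted p = 0.0212). Without both libraries numbered 3, a choice made after seeing the data, its log2 fold change was 0.31.

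SLC39A10 (ENSG00000196950.9, chromosome 2, 196440701 to 196602426, plus strand), an importer of the plasma membrane, stood at 3.23, 4.10 and 5.63 FPKM in dopamine replicates 1, 2 and 3, against 3.02, 2.57 and 2.0 FPKM in control replicates 1, 2 and 3. The groups did not overlap, and again the libraries numbered 3 lay farthest apart. Means were 4.32 ± 1.21 FPKM with dopamine and 2.53 ± 0.509 FPKM in control (SD, n = 3 each), a fold of 1.57 and a log2 fold change of 0.65 (SE 0.19, 95% interval 0.22 to 1.09, limma adjusted p = 0.11). Its GC content of 37.6% was at percentile 5.35, and the correction brought the log2 fold change to 0.22 (SE 0.09, limma adjusted p = 0.291). It was called without control replicate 1 (0.77, limma adjusted p = 0.0324) and with sample quality weights (0.49, limma adjusted p = 0.0295), and without both libraries numbered 3 it was 0.33. The pseudogene AHCYP5, on the opposite strand inside SLC39A10, was at most 0.0417 FPKM in any library.

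**Figure D3:**
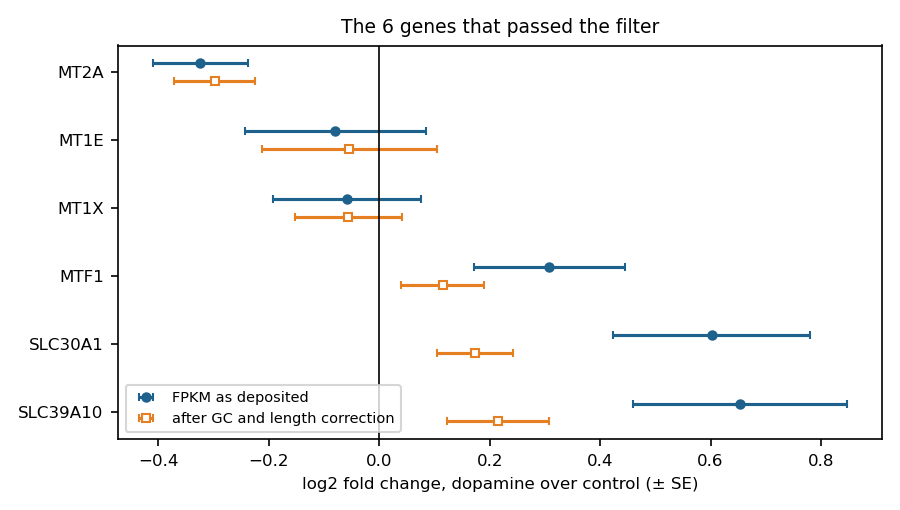
Log2 fold change, dopamine over control, with its SE for the 6 tested genes, from FPKM as deposited (filled circles) and after the GC and length correction (open squares). MT2A stays near -0.3 in both, while SLC30A1 is at 0.60 as deposited and 0.17 corrected, and SLC39A10 at 0.65 as deposited and 0.22 corrected.

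The library trend and the levels of SLC30A1 and SLC39A10, both AT-rich, moved together. The slope is fitted over the tested genes, AT-rich ones among them, so it is not independent of such levels. SLC30A1 and SLC39A10 had their highest level in dopamine replicate 3, the library with the lowest GC slope (-0.26 log2 units per 10 points), and their lowest in control replicate 3, the library with the highest (0.22). MT2A stood at 75.6, 89.2 and 78.5 FPKM in dopamine replicates 1, 2 and 3, at slopes of -0.03, -0.06 and -0.26. In control replicates 1, 2 and 3 it stood at 97.5, 108 and 98.5 FPKM, at slopes of 0.02, 0.11 and 0.22. Between the groups its level and the slope differed together, and the design cannot tell them apart. The part of GC content in the results beyond the correction was not tested. Nuclear-retained RNAs (KCNQ1OT1, MALAT1, MEG3, NEAT1 and TUG1, of which 4 were listed and 3 tested) also had higher means with dopamine. Their sums, mostly TUG1, overlapped, between 15.0 and 22.4 FPKM in dopamine samples and between 9.64 and 15.2 FPKM in control samples. The median log2 fold change of the 3 was 0.48 as deposited and 0.18 after the correction. Of the 3, 0 passed, and their part in the results was not tested.

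**Figure D4:**
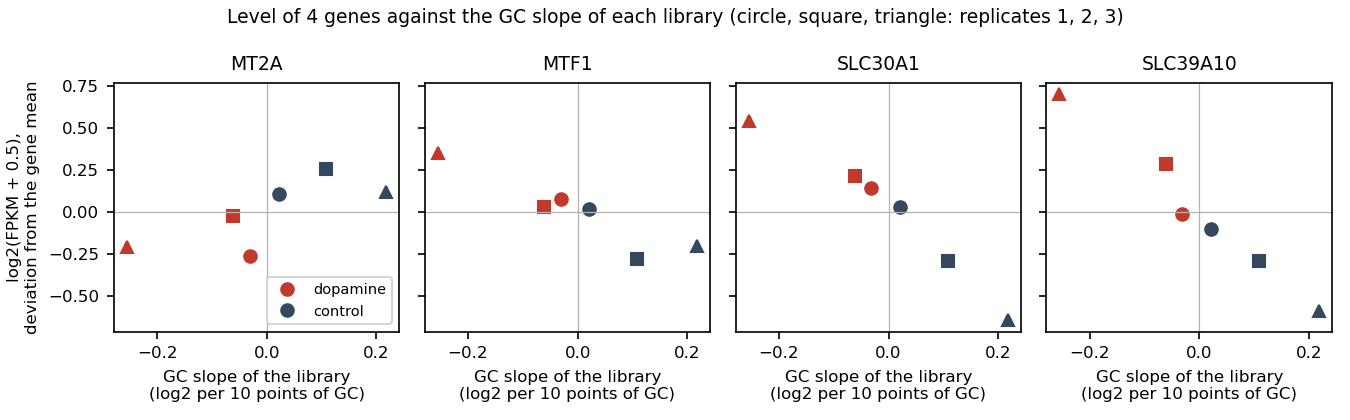
Deviation of log2(FPKM + 0.5) from the gene's mean against the GC slope of each library for 4 genes, dopamine in red and control in blue, with circle, square and triangle for replicates 1, 2 and 3. SLC30A1 and SLC39A10 are highest in the library with a slope of -0.26 and lowest in that with 0.22.

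SLC30A1 and SLC39A10 were set beside the other zinc transporters, and the counts for each family include them. Most of the SLC30 family moves zinc out of the cytosol, to the outside or into organelles, and 9 of its members were in the table. Of the 5 tested, SLC30A1, SLC30A5, SLC30A6, SLC30A7 and SLC30A9, 0 passed the adjusted threshold in limma, while all 5 had higher means with dopamine at an unadjusted p under 0.05, against 24.4% of all tested genes, and 4 had groups apart, against 24.4% as well. Their median log2 fold change was 0.56, with a range of 0.39 to 0.60, against 0.08 over all tested genes. After the correction 2 of the 5 had an unadjusted p under 0.05, against 17.0% of genes in either direction, with a median of 0.15. All 5 were called without control replicate 1, the setting in which 18.5% of all tested genes were called, and 4 of the 5 with sample quality weights (22.9% of genes). SLC30A6, which works with SLC30A5 to load zinc into the secretory pathway, stood at 8.16, 9.29 and 11.3 FPKM in dopamine samples and 7.65, 6.43 and 4.74 FPKM in control samples. Its log2 fold change was 0.58 as deposited and 0.15 after the correction. SLC30A7, a Golgi transporter, had 0.43 as deposited and -0.04 after the correction.

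The SLC39 family brings zinc into the cytosol, and 11 of its 14 listed members were tested. None passed in limma (0 of 11). At an unadjusted p under 0.05, 5 had higher means and 1 a lower mean, against 24.4% and 8.05% of all tested genes. SLC39A10 itself was 1 of these 5, and it is also among the higher counts that follow. In all, 7 of the 11 had higher means, with a median log2 fold change of 0.13, and 0.14 after the correction. The corrected counts at that unadjusted p were 4 higher and 1 lower, against 17.0% of genes in either direction. Without control replicate 1, 5 of the 11 were called, all higher (18.5% of all tested genes were called), and with sample quality weights 5 higher and 1 lower (22.9% of genes). SLC39A9, an importer of the Golgi with the smallest p of the family, stood at 17.3, 18.3 and 20.01 FPKM in dopamine samples and 14.4, 13.1 and 13.2 FPKM in control samples, with a log2 fold change of 0.44 as deposited and 0.15 after the correction. SLC39A8, which also carries manganese and cadmium, had 0.45 as deposited and 0.20 after it. SLC39A6, a close relative and partner of SLC39A10, stood at 21.3, 22.3 and 28.6 FPKM in dopamine samples and 18.2, 15.96 and 11.01 FPKM in control samples. Its log2 fold change was 0.68 as deposited and 0.34 after the correction. SLC39A14, which carries zinc, iron and manganese, stood at 18.7, 18.7 and 20.4 FPKM in dopamine samples and 16.4, 13.8 and 13.5 FPKM in control samples, with 0.40 as deposited and 0.24 after the correction (limma adjusted p = 0.148). SLC39A13, which releases zinc from the secretory pathway, had a lower mean, with 14.9, 15.0 and 11.9 FPKM in dopamine samples and 16.7, 17.5 and 16.6 FPKM in control samples. Its log2 fold change was -0.28 as deposited, -0.11 after the correction (limma adjusted p = 0.388) and -0.17 without dopamine replicate 3. SLC39A1, the most abundant importer, overlapped between groups, with 64.8, 68.6 and 54.6 FPKM in dopamine samples and 68.5, 72.6 and 66.6 FPKM in control samples.

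**Figure D5:**
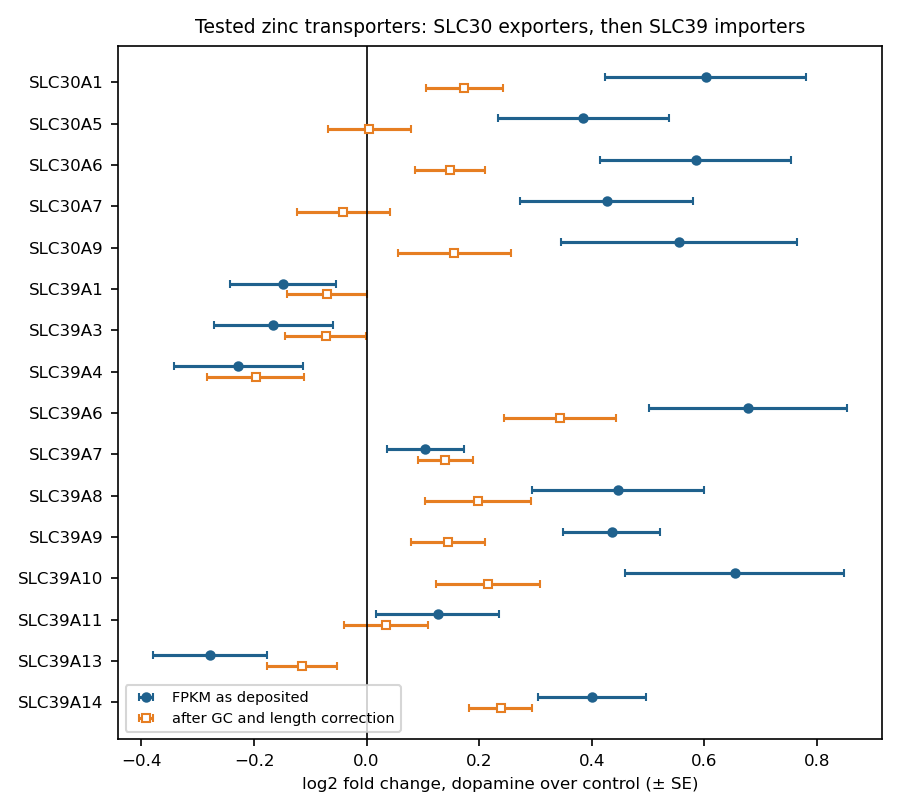
Log2 fold change, dopamine over control, with its SE for the 5 tested SLC30 genes and the 11 tested SLC39 importers, as deposited (filled circles) and after the GC and length correction (open squares). All 5 SLC30 genes are at 0.39 or above as deposited and at or under 0.17 after the correction.

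The same libraries held a strong response of genes that metals and oxidants are known to induce along with metallothioneins. HMOX1, which encodes the haem-degrading enzyme haem oxygenase 1, stood at 426, 470.4 and 391.7 FPKM in dopamine samples and 32.0, 38.2 and 28.9 FPKM in control samples (log2 fold change 3.69, SE 0.11, limma adjusted p = 6.06e-07, and 3.77 after the correction). Of 15 tested genes of the metal and oxidant response list, 3 rose and none fell: HMOX1, GCLM and TXNRD1, against 0.0848% of all tested genes that rose. The list was chosen with earlier results of these data known, so this count is a description and not a test. GCLM, a subunit of the enzyme of glutathione synthesis, had a log2 fold change of 1.25 as deposited (limma adjusted p = 0.00626) and 0.81 after the correction (limma adjusted p = 0.00438). TXNRD1, a thioredoxin reductase, had 0.98 as deposited (limma adjusted p = 0.0199) and 0.73 after it (limma adjusted p = 0.00438). SLC7A11, the cystine importer gene, had 1.25 as deposited, which did not pass (limma adjusted p = 0.0753), and 0.76 after the correction, which did (limma adjusted p = 0.0237). The call of GCLM was lost without control replicate 2 (limma adjusted p = 0.0782). That of TXNRD1 was lost without dopamine replicate 1, dopamine replicate 3, control replicate 2 or control replicate 3 (limma adjusted p between 0.0526 and 0.217). Without control replicate 1, 7 of the 15 were called, in a setting that called 18.5% of all tested genes. At an unadjusted p under 0.05, 8 of the 15 had higher means and none a lower mean, against 24.4% and 8.05% of all tested genes. After the correction these counts were 6 and 1, against 17.0% of genes in either direction. The median of the list was 0.38 as deposited and 0.12 after the correction. Among members that did not pass, HSPA1A and PGF, known as metal-induced and picked after their values were seen, had levels that overlapped between groups. The heat shock gene HSPA1A stood at 20.3, 20.5 and 19.98 FPKM in dopamine samples and 21.4, 19.0 and 21.6 FPKM in control samples. The growth factor gene PGF, a known MTF1 target, had a log2 fold change of -0.01 (SE 0.16, limma adjusted p = 0.976), which lay between -0.16 and 0.12 over the alternatives. HSPA1A likewise lay between -0.12 and 0.09. Of the other heat shock genes in the list, HSPA1B and DNAJB1 also overlapped, with log2 fold changes of 0.004 and -0.07. HSPA8 and HSPH1 had groups apart and higher with dopamine, at 0.38 and 0.46, and neither passed. After the correction HSPA8 was at 0.20 with groups still apart, and HSPH1 was at 0.08 and overlapped.

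The metallothionein genes lie within 76 kb on chromosome 16, from the start of MT2A to the end of MT1X. Of 9 tested neighbours of the cluster 1 rose, HERPUD1, against 0.0848% of all tested genes that rose. This list too was chosen with earlier results of these data known, so the count describes and does not test. HERPUD1 starts 248 kb after MT1X and encodes a protein of the endoplasmic reticulum. It stood at 23.5, 22.2 and 23.7 FPKM in dopamine samples and 11.3, 9.40 and 11.2 FPKM in control samples (log2 fold change 1.09, limma adjusted p = 0.0024, and 0.94 after the correction). The median log2 fold change of the 9 was -0.03, and 2 of the 9 were called without control replicate 1 (18.5% of all genes). OGFOD1, a prolyl hydroxylase gene, had 0.33 as deposited and 0.02 after the correction, and CPNE2, a copine gene, had -0.24 as deposited and -0.22 after it; neither passed.

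The 5 tested genes whose profile over the 6 libraries was most like that of MT2A were C16orf59, PTGIR, PAQR7, CTAG2 and C9orf37. Likeness was the root mean square difference of log2(FPKM + 0.5) centred on each gene's mean, which ran from 0.03 to 0.05 log2 units. C16orf59 was nearest, with 8.49, 10.1 and 8.62 FPKM in dopamine samples and 10.7, 11.5 and 10.7 FPKM in control samples. As in MT2A, dopamine replicate 2 was the highest of its group and so was control replicate 2. None of the 5 passed, with log2 fold changes between -0.34 and -0.26 (limma adjusted p between 0.11 and 0.132). No other metallothionein was among them.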

How the data were processed

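RNA from 3 dopamine and 3 control samples was depleted of ribosomal RNA and made into stranded total RNA libraries, per the labels' protocols. The authors deposited FPKM values for 26789 genes with hg19 coordinates. STAR 2.7.1a, FastQC 0.11.9, DESeq2 1.40.2 and HTSeq 0.11.2 are listed in the submitters' processing notes, with the hg19 build and no roles. The sources used here give no annotation, strand setting or FPKM formula, so genes that overlap or have near-identical copies are uncertain. FPKM cannot be tested with count models. Values were tested as log2(FPKM + 0.5) with limma 3.58.1 (R 4.3.3, intensity trend, two-sided), dopamine over control, for genes averaging at least 1 FPKM, with Benjamini-Hochberg adjustment over all 11791 of them at 0.05. The pseudocount of 0.5 understates changes of low genes. 

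Fragment totals were recovered from 2797 pseudogenes, whose low values are whole multiples of what 1 fragment is worth; 92.9% to 94.2% of values per library came out whole within 0.03. Fragment numbers of single genes are approximate, and intervals cover counting error only. GC content and length of the longest transcript came from GENCODE v29 by gene identifier, without coordinates, and the correction took each library's deviations from the gene means and fitted loess with a span of 0.5, available for 98.2% of tested genes (11579). How the tests behave when GC content moves with the groups, as it did here, was not tested. Named genes were the 10 genes, other metallothioneins in the table, HMOX1 and HERPUD1. Added to these were up to 4 genes of smallest p per related list and the 5 profiles nearest MT2A. SLC39A1, SLC39A13, PGF, HSPA1A and the other heat shock genes, and the markers named beside cell types, were picked once their values had been seen. The genes and lists were chosen with earlier results of these data known. Alternatives were other pseudocounts, filters, scalings, prior settings, sample weights, a replicate block, and leaving out libraries.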

Additional observations from a re-analysis of the deposited data

How the results depend on the processing

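Of the 10 genes 6 were tested in the fit as reported and 0 were called, with 12 calls over all genes (0.102%) and 4 among the related lists. MT1A, MT1F, MT1G and MT1M entered only fits with a lower filter or none, and 0 were called there. The call over all genes was 6 with no filter on low values, 27 after quantile normalization, 28 after the GC and length correction, 5 with no trend, 6 at a threshold of 0.01, 7 without control replicate 3 and dopamine replicate 3, and 2706 with sample quality weights. The related lists held 2 calls with no filter and 24 with sample quality weights. With those weights 4 of the 6 tested genes of the set were called (MT2A, MTF1, SLC30A1 and SLC39A10), against 22.9% of all tested genes. Leaving out 1 library gave 3 to 2177 calls over all genes, 2 to 23 in the lists and 0 to 3 among the 6 tested genes of the set. The 3 (MT2A, SLC30A1 and SLC39A10) and the 2177 (18.5% of all tested genes) came without control replicate 1. With the replicate block the calls were 3 over all genes and 2 in the lists. Deviations of same-numbered libraries from their group means had correlations of -0.20, 0.28 and -0.37 for numbers 1, 2 and 3. With no differently numbered libraries set beside them, these values cannot decide whether the numbers pair the samples. The log2 fold change kept its sign in every alternative run for MT2A (-0.42 to -0.28), MT1X (-0.20 to -0.03), MTF1 (0.11 to 0.39), SLC30A1 (0.17 to 0.77) and SLC39A10 (0.22 to 0.82). For MT1E leaving out 1 library gave -0.25 to 0.01, with 0.014 without dopamine replicate 3 and values above 0 also without control replicate 1 or control replicate 2. MT2P1 ranged from -0.52 to 0.11 when 1 library was left out, above 0 without dopamine replicate 1. SLC30A7 turned to -0.041 after the GC and length correction. HSPA1A turned to 0.093 after that correction, 0.051 with sample quality weights, 0.014 without control replicate 3 and dopamine replicate 3, and -0.084 to 0.0053 when 1 library was left out. PGF turned to 0.028 after the correction, 0.11 with sample quality weights, 0.063 without control replicate 3 and dopamine replicate 3, and -0.13 to 0.12 when 1 library was left out. The cause of these turns was not tested. GCLM and TXNRD1 lost their calls with no filter and with the replicate block, and TXNRD1 also with no trend and at 0.01. Median-of-ratios scaling moved the median of all genes from 0.08 to 0.00 and MT2A to -0.42.

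Depth limits MT1A, MT1F, MT1G, MT1M and MT1X, with at most 50 fragments in a library. Groups of 3 cannot give an exact p below 0.1, and GC content moved with the groups.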

Other observations

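Copper, the other metal that metallothioneins hold, had 14 of 16 listed handling genes tested, and 0 passed in limma. At an unadjusted p under 0.05, 4 had higher means and 1 a lower mean with dopamine, against 24.4% and 8.05% of all tested genes. After the GC and length correction these counts were 0 and 1, against 17.0% of genes in either direction. Without control replicate 1 there were 3 calls, all higher, in a setting that called 18.5% of all tested genes. SLC31A1, the copper importer of the plasma membrane, stood at 8.51, 8.11 and 8.86 FPKM in dopamine samples and 6.89, 6.27 and 6.21 FPKM in control samples, with a log2 fold change of 0.37 as deposited and 0.10 after the correction. SOD1, the copper and zinc superoxide dismutase, overlapped between groups (51.9, 59.8 and 67.5 FPKM in dopamine samples, 51.4, 53.3 and 45.7 FPKM in control samples).

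Of 9 tested glucocorticoid response genes 0 passed in limma as deposited, 3 had higher means at an unadjusted p under 0.05 (24.4% of all tested genes did), and the median log2 fold change was 0.22, or 0.15 after the correction. Without control replicate 1 there were 3 calls, all higher, beside 18.5% of all tested genes. CEBPD, a transcription factor gene, stood at 11.9, 12.6 and 8.81 FPKM in dopamine samples and 7.58, 9.27 and 7.06 FPKM in control samples. It passed after the GC and length correction (log2 fold change 0.68, limma adjusted p = 0.0475) and not as deposited (0.45, limma adjusted p = 0.112). KLF9 had 0.68 as deposited and 0.48 after the correction (limma adjusted p = 0.163). FKBP5 had 0.38 as deposited and 0.04 after it.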
